A study of Mus musculus with 2 samples.

Results

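The genes described here are Tnf, which encodes the cytokine TNF, the genes of its 2 receptors, Tnfrsf1a and Tnfrsf1b, and 7 genes that NF-kB is known to switch on: Nfkbia, Nfkb1, Nfkb2, Relb, Tnfaip3, Tnfaip2 and Birc3. They were chosen by name, as 10 of the 28000 rows of a single-cell count table, and all 10 were in it. TNF binds its receptors as a trimer and activates a kinase complex that marks the inhibitor IκBα for destruction, which frees NF-kB dimers to enter the nucleus. Among the first genes that NF-kB switches on are its own inhibitors, so that the RNA of these inhibitors is often read as a sign of recent activity of the pathway. In the mammary gland NF-kB takes part in branching, in pregnancy and in the inflammation that goes with involution.

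Cells were profiled by droplet-based sequencing with unique molecular identifiers (UMIs). In both groups wild-type luminal donor cells, which were Fgfr2+/+ and carried the R26R mTmG reporter, had been mixed with basal donor cells of the same reporter that had met an adenovirus with Cre and GFP. The basal cells were Fgfr2+/+ in the group Ctrl and Fgfr2Δ/Δ in the group Fgfr2 KO. The mixtures had been placed in cleared fat pads of nude female mice 3 weeks old, dissected 5 days after surgery and sorted. The study used these transplants to look for the factors by which basal cells act on luminal cells. By design the deletion lay in basal donor cells only, and it was made in culture by the Cre of the virus. The hosts lacked mature T cells but kept myeloid cells, and how many transplants were pooled was not given in the sources used here.

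With 1 library in each group, differences between groups could not be tested. The intervals given below reflect counting error alone and leave out how far animals or cells vary. Ctrl had 268 cells and 5458515 UMIs and Fgfr2 KO had 86 cells and 1253032 UMIs, and no barcode occurred in both. Although the samples were labelled as epithelial, 73 cells of Ctrl and 23 of Fgfr2 KO carried RNA of Ptprc, which encodes the leukocyte antigen CD45. These cells, with 1 Ptprc UMI or more, are called immune below. Of the others, a cell with at least 10 UMIs of 4 keratin genes was called basal where Krt14 and Krt5 had more UMIs than Krt8 and Krt18, and luminal where they had fewer. This gave 98 luminal and 63 basal cells in Ctrl and 20 luminal and 17 basal cells in Fgfr2 KO. There was 1 tie, in Ctrl. Markers that the rule did not use went with the names: Acta2, a myoepithelial actin, was at 2274 CPM (counts per 1000000 UMIs of the summed cells) in basal and 522 CPM in luminal cells of Ctrl, and Krt19, a luminal keratin, at 178 and 1922 CPM. The remaining 33 and 26 cells, in that order, are called keratin-low. This class was mixed and its makeup differed between the libraries. In Ctrl 22 of its cells had more UMIs of 10 myeloid than of 6 fibroblast markers, such as Col1a1 and Pdgfra, and 10 had fewer, while in Fgfr2 KO 22 had more and 2 had fewer. The fibroblast markers summed to 19646 CPM in the keratin-low cells of Ctrl and 1872 CPM in those of Fgfr2 KO, and the median cell had 1196 and 10364 CPM of the myeloid markers.

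Fgfr2, the deleted gene, could not be told apart between the libraries at this depth. Its basal level was 32.9 CPM on 41 UMIs in Ctrl, with a 95% exact Poisson interval of 23.6 to 44.7, against 24.7 CPM on 7 UMIs (9.94 to 51.0) in Fgfr2 KO. The counts do not show which part of the gene a UMI came from, so RNA of the deleted allele would also have been counted. Cells with at least 10 GFP UMIs, which the design placed among basal cells, were 3 of 98 luminal and 2 of 63 basal cells in Ctrl and 6 of 20 luminal and 2 of 17 basal cells in Fgfr2 KO. Several results between the libraries in the luminal class are therefore also given without such cells. Over whole classes GFP was higher in luminal than in basal cells, at 171 against 109 CPM in Ctrl and 1227 against 477 CPM in Fgfr2 KO. The other reporter, Tdtomato, was at 37.7 and 40.1 CPM in Ctrl and 26.1 and 49.5 CPM in Fgfr2 KO. The reporters thus did not separate the donors by class, and the genotype of single cells was not known.

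Among the promoters of these genes, 4 held a match to the κB consensus, the short sequence to which NF-kB binds. RefSeq windows (GRCm38.p6) from 250 bases before to 50 bases after a transcript start were at hand for 8 of the 10 genes, all but Nfkb1 and Relb. The consensus of 10 bases was searched on both strands with overlaps allowed. A match was found for Nfkbia, Nfkb2, Tnfaip3 and Tnfaip2, or 4 of 8 genes, where 9.55% of all 27025 genes with a window had one. Tnf, Tnfrsf1a, Tnfrsf1b and Birc3 had none in this window. The stretches below show 5 of 8 sites, those upstream of and nearest to a start, printed 5′ to 3′ on the strand of the gene with the match in capitals. The match of Nfkbia begins 29 bases upstream of the start (chr12:55492657-55492686, minus strand). Those of Nfkb2 begin 39 and 11 bases upstream (chr19:46304688-46304717 and chr19:46304716-46304745, plus strand), and the former holds 2 overlapping matches. That of Tnfaip3 begins 12 bases upstream (chr10:19015403-19015432, minus strand), and that of Tnfaip2 24 bases upstream (chr12:111442627-111442656, plus strand). In GENCODE another transcript of the gene begins further upstream for the last 3 genes, so the sites of Nfkb2 and Tnfaip2 also lie in an exon and that of Tnfaip3 in an intron.
Nfkbia: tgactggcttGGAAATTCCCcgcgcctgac
Nfkb2, distal: ggatcgtcacGGGAATTCCCCccctcgggg
Nfkb2, proximal: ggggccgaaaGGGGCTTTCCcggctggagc
Tnfaip3: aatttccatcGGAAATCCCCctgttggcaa
Tnfaip2: gactattttaGGAGGGCCCCtccagggtcg
A match is a description of the sequence and does not show that the site was bound in these cells.

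Tnf RNA was not confined to immune cells. In Ctrl its level was highest in immune cells, lower in luminal cells and lowest in basal cells, and luminal cells held nearly as many Tnf UMIs in all as immune cells did. Tnf lies on chromosome 17 from 35199381 to 35202007 (minus strand; all positions are in GRCm38) and is known chiefly as a product of activated macrophages. In Ctrl it was at 244 CPM in immune cells (304 UMIs, 217 to 273), 134 CPM in keratin-low cells (42 UMIs, 96.7 to 181), 106 CPM in luminal cells (279 UMIs, 94.1 to 119) and 37.7 CPM in basal cells (47 UMIs, 27.7 to 50.2). Luminal cells thus held 41.5% of the Tnf UMIs of Ctrl and immune cells 45.2%. In this order only keratin-low and luminal cells had overlapping intervals. All 42 keratin-low UMIs were in the 22 cells with more myeloid than fibroblast RNA, at 231 CPM (167 to 312). The log2 ratio of luminal over basal cells was 1.49 (95% exact conditional interval 1.04 to 1.97). It was 2.27 (1.54 to 3.10) with mixed keratin cells left out, and 2.03 (1.57 to 2.52) for the luminal cells with more hormone-sensing RNA and 0.47 (-0.12 to 1.07) for those with more secretory progenitor RNA, as divided further on. For immune over luminal cells, the ratio was 1.20 (0.96 to 1.44).

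The luminal Tnf was set beside RNA that droplets can share. The 10 myeloid markers, such as Lyz2, Tyrobp and C1qa, were found in luminal cells of Ctrl at 2.36% of their level in immune cells (477 against 20270 CPM), and in basal cells at 2.27%. None of the 10 was at 0 in either class. Tnf in luminal cells was at 43.6% of its immune level and in basal cells at 15.5%, so its level in both classes stood well above what the myeloid markers reached there. A single cell gave part of each sum. The cell with the most Tnf was an immune cell with 52 Tnf UMIs, 17.1% of its class, and it had 162 luminal keratin and 119 myeloid UMIs. The next was a luminal cell with 40 Tnf UMIs, 14.3% of its class, with no Ptprc UMI and 643 luminal keratin UMIs.

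The receptors were distributed differently from the ligand and from each other. Tnfrsf1a (chromosome 6, 125349362 to 125362484, plus strand), the receptor with a death domain that most cell types carry, was found in every class. Its level in Ctrl was 60.9 CPM in luminal cells (160 UMIs, 51.8 to 71.1), 72.3 CPM in basal cells (90 UMIs, 58.1 to 88.8), 57.5 CPM in keratin-low cells (18 UMIs, 34.1 to 90.9) and 53.7 CPM in immune cells (67 UMIs, 41.6 to 68.2). All 4 intervals overlapped. However, 8 of the 73 immune cells had more keratin than myeloid UMIs, and the other 65 held 34 of the 67 UMIs, at 39.4 CPM (27.3 to 55.0), below the interval of basal cells. Tnfrsf1b (chromosome 4, 145213463 to 145246870, minus strand), the receptor that is known to prefer membrane-bound TNF and is mostly found on leukocytes, was concentrated in immune cells. It was at 92.2 CPM there (115 UMIs, 76.1 to 111), 51.1 CPM in keratin-low cells (16 UMIs, 29.2 to 83.0), 14.8 CPM in luminal cells (39 UMIs, 10.6 to 20.3) and 6.42 CPM in basal cells (8 UMIs, 2.77 to 12.7). The log2 ratio of immune over luminal cells was 2.64 (2.10 to 3.20). Tnfrsf1b in luminal cells stood at 16.1% of its immune level, also above the 2.36% of the myeloid markers.

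Of the targets, Nfkbia and Nfkb2 had their highest level in Ctrl in luminal cells, and for Nfkbia no interval of another class reached it. Nfkbia (chromosome 12, 55489410 to 55492647, minus strand) encodes IκBα, the inhibitor that holds NF-kB in the cytoplasm. In Ctrl it was at 3298 CPM in luminal cells (8669 UMIs), 2537 CPM in keratin-low cells (794 UMIs), 2270 CPM in basal cells (2828 UMIs) and 2214 CPM in immune cells (2761 UMIs). The log2 ratio of luminal over basal cells was 0.54 (0.48 to 0.60), and that of immune over luminal cells was -0.58 (-0.64 to -0.51). Over single luminal cells Nfkbia ranged up to 131 UMIs per 10000, with a median of 30.5. Nfkbia thus had its highest level in the epithelial class that was also higher in Tnf, while immune cells, the class with most Tnf, had no more of it than basal cells (-0.04, -0.11 to 0.04).

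Tnfaip3 and Tnfaip2 were higher in immune cells. Tnfaip3 (chromosome 10, 19000910 to 19015657, minus strand) encodes A20, a ubiquitin-editing enzyme that shuts the pathway off. It was at 129 CPM in luminal (340 UMIs), 131 CPM in basal (163 UMIs), 256 CPM in keratin-low (80 UMIs) and 257 CPM in immune cells (321 UMIs) of Ctrl, with an immune over luminal log2 ratio of 0.99 (0.77 to 1.22). Tnfaip2 (chromosome 12, 111442469 to 111455018, plus strand), a TNF-inducible gene linked to membrane protrusions, had the steepest contrast. It was at 36.9 CPM in luminal (97 UMIs), 20.1 CPM in basal (25 UMIs), 195 CPM in keratin-low (61 UMIs) and 390 CPM in immune cells (487 UMIs), a ratio of immune over luminal cells of 3.40 (3.09 to 3.73).

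The NF-kB subunit genes each spanned less than 2-fold over the classes of Ctrl. Nfkb1 (chromosome 3, 135584655 to 135691547, minus strand), which encodes p105 and p50, ranged from 105 CPM in basal to 155 CPM in immune cells of Ctrl. Nfkb2 (chromosome 19, 46304320 to 46312385, plus strand) and Relb (chromosome 7, 19606217 to 19629438, minus strand), which encode the p100/p52 and RelB subunits of the non-canonical branch, ranged from 22.4 to 44.1 CPM and from 32.1 to 44.7 CPM. Of these, Nfkb2 was higher in luminal than in basal cells (0.69, 0.13 to 1.29). Birc3 (chromosome 9, 7848699 to 7873186, minus strand) encodes cIAP2, a ubiquitin ligase recruited to the TNF receptor. It ranged from 19.0 CPM in luminal to 38.3 CPM in keratin-low cells.

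Counted over the 10 genes, 2 were past 2-fold higher in luminal than in basal cells of Ctrl (Tnf and Tnfrsf1b) and 0 were past 2-fold lower, where 9.05% and 5.50% of all 9537 genes with at least 20 UMIs were. Between immune and luminal cells 3 were past 2-fold higher (Tnf, Tnfrsf1b and Tnfaip2) and 0 lower, where 9.79% and 20.2% of 9691 genes were. Fgfr2 KO had 4 past 2-fold higher in its immune than in its luminal cells, the same 3 with Tnfaip3, and 0 lower, where 11.7% and 19.1% of 4683 genes were. In its luminal over basal comparison of 7 members with enough UMIs it had Nfkb2 higher (1.28, -0.15 to 3.03) and 0 lower, where 13.8% and 7.33% of 4655 genes were.

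**Figure D1:**
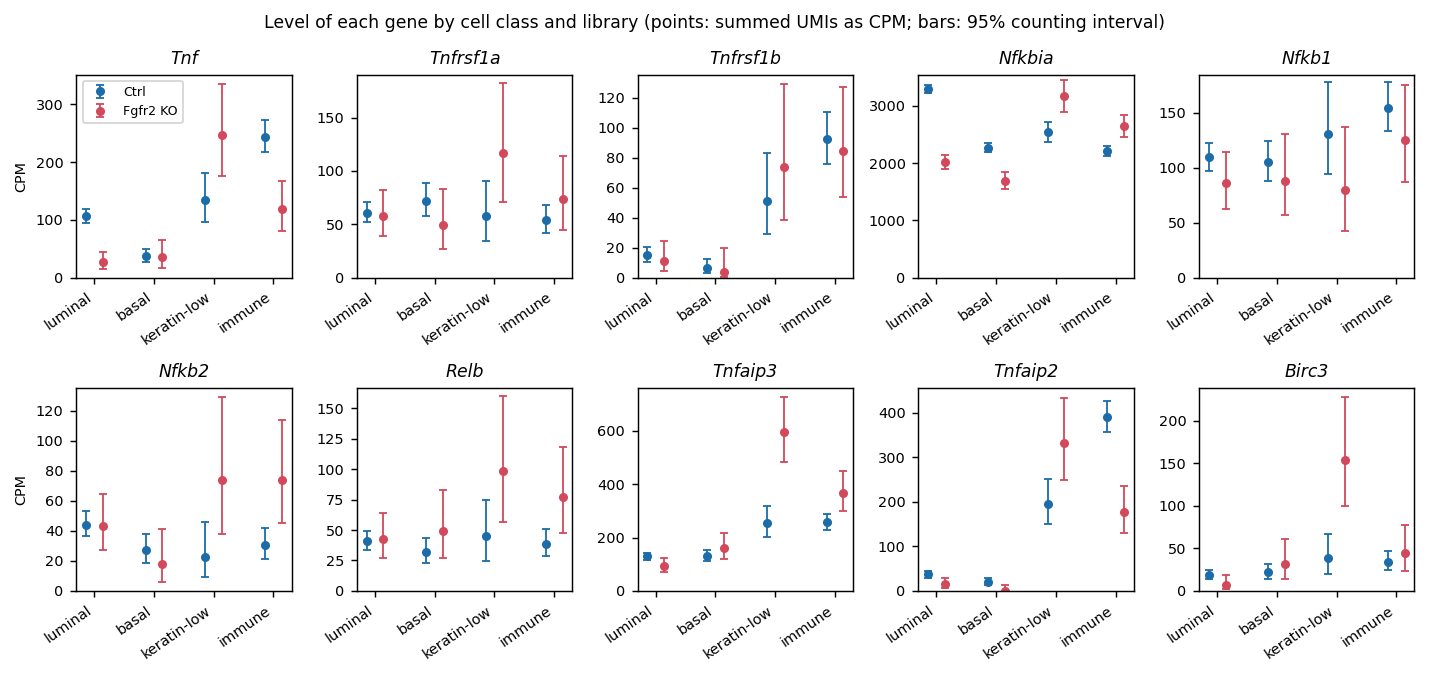
Level of each of the 10 genes (y axis, CPM, linear from 0, a scale for each gene) in luminal, basal, keratin-low and immune cells (x axis) of Ctrl and Fgfr2 KO. Points are summed UMIs and bars are 95% counting intervals. Luminal Tnf stood at 106 CPM in Ctrl and at 26.1 in Fgfr2 KO, while Tnfrsf1a stayed between 49.5 and 117 CPM in every class.

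Between the libraries, Tnf in luminal cells was lower in Fgfr2 KO. The 20 luminal cells of Fgfr2 KO held 14 Tnf UMIs, or 26.1 CPM (14.3 to 43.8), against 279 UMIs and 106 CPM in the 98 of Ctrl. The log2 ratio was -2.02 (-2.91 to -1.25), or 4.07-fold lower. With no keratin minimum, which adds keratin-low cells to the class, it was -0.92 (-1.46 to -0.41). Markers of other cell types were lower in these cells as well. The myeloid markers were at 213 CPM in Fgfr2 KO and 477 CPM in Ctrl, or 1.33% and 2.36% of the immune level of each library, where Tnf was at 22.1% and 43.6% of its own. The fibroblast markers were at 151 and 560 CPM. The part of RNA from these cells in the Tnf ratio was not tested. In basal cells Fgfr2 KO had 35.3 CPM (10 UMIs, 16.9 to 65.0) against 37.7 CPM, a ratio of -0.09 (-1.25 to 0.91) that does not exclude a 2-fold difference downwards. The excess of luminal over basal Tnf seen in Ctrl was not found in Fgfr2 KO, where the ratio was -0.44 (-1.71 to 0.89). The difference between the luminal and basal ratios was not tested.

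In the cells outside the keratin classes Tnf went both ways. In immune cells it was lower in Fgfr2 KO, at 118 CPM (32 UMIs, 80.6 to 166) against 244 CPM, a log2 ratio of -1.05 (-1.62 to -0.52). In keratin-low cells it was higher, at 246 CPM (40 UMIs, 176 to 335) against 134 CPM, a ratio of 0.88 (0.21 to 1.54). The cells with more fibroblast RNA, 10 in Ctrl and 2 in Fgfr2 KO, held 0 Tnf UMIs. Between the 22 cells of each library with more myeloid than fibroblast RNA, a split chosen after the data had been seen, Tnf was at 313 against 231 CPM, and the ratio of 0.44 (-0.22 to 1.10) no longer excluded no change. In both libraries Tnf in keratin-low cells went with myeloid RNA. The myeloid markers summed to 28761 CPM in the 14 keratin-low cells of Ctrl with a Tnf UMI and 1660 CPM in the 19 without, and to 18637 CPM in 11 and 3002 CPM in 15 such cells of Fgfr2 KO. The immune class of Fgfr2 KO held a cell of 83994 UMIs, 30.9% of the UMIs of its class, with 607 luminal keratin, 15 myeloid and 1 Ptprc UMI. Without it the immune ratio of Tnf was -0.76 (-1.38 to -0.19).

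The lower Tnf of luminal cells in Fgfr2 KO was seen in the cells with more hormone-sensing than secretory progenitor RNA. Luminal cells were divided by the sum of 6 hormone-sensing markers (Prlr, Esr1, Pgr, Areg, Foxa1 and Cited1) and 7 secretory progenitor markers (Kit, Elf5, Csn3, Aldh1a3, Lalba, Trf and Cd14). The former group held 58 cells of Ctrl and 14 of Fgfr2 KO, the latter 34 and 6, and 6 cells of Ctrl had equal sums. In hormone-sensing cells Fgfr2 KO had 12.5 CPM of Tnf (5 UMIs, 4.05 to 29.1) against 154 CPM (219 UMIs, 135 to 176). The log2 ratio was -3.63 (-5.27 to -2.39). In progenitor cells it had 66.6 CPM (9 UMIs, 30.5 to 126) against 52.2 CPM (54 UMIs, 39.2 to 68.2), a ratio of 0.35 (-0.85 to 1.38). These 2 intervals did not overlap, but they rested on 14 and 6 cells of 1 library, and this split was chosen after the data had been seen. Of the 9 Tnf UMIs in progenitor cells of Fgfr2 KO, 7 were in 3 cells with at least 10 GFP UMIs. Without such cells the ratio was -0.33 (-3.41 to 1.59) in progenitor cells, on 2 UMIs in 3 cells of Fgfr2 KO, and -3.54 (-5.43 to -2.17) in hormone-sensing cells, and the intervals overlapped.

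Single cells showed the same contrast. In the 58 hormone-sensing cells of Ctrl, Tnf ranged from 0 to 9.91 UMIs per 10000 with a median of 0.938, and 37 of the 58 lay above the highest of the 14 Fgfr2 KO cells, at 0.449. The median of the latter was 0, with 10 of the 14 at 0. Median depth was 21979 UMIs per cell in Ctrl and 24626 in Fgfr2 KO, so the cells of Fgfr2 KO were not the shallower. In the progenitor cells the medians were 0.103 in Ctrl and 0.746 in Fgfr2 KO, and the highest values 2.82 and 0.837. Cells with at least 10 GFP UMIs held 8 of the 14 luminal Tnf UMIs of Fgfr2 KO, and without them the ratio over all luminal cells was -2.62 (-4.08 to -1.48).

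**Figure D2:**
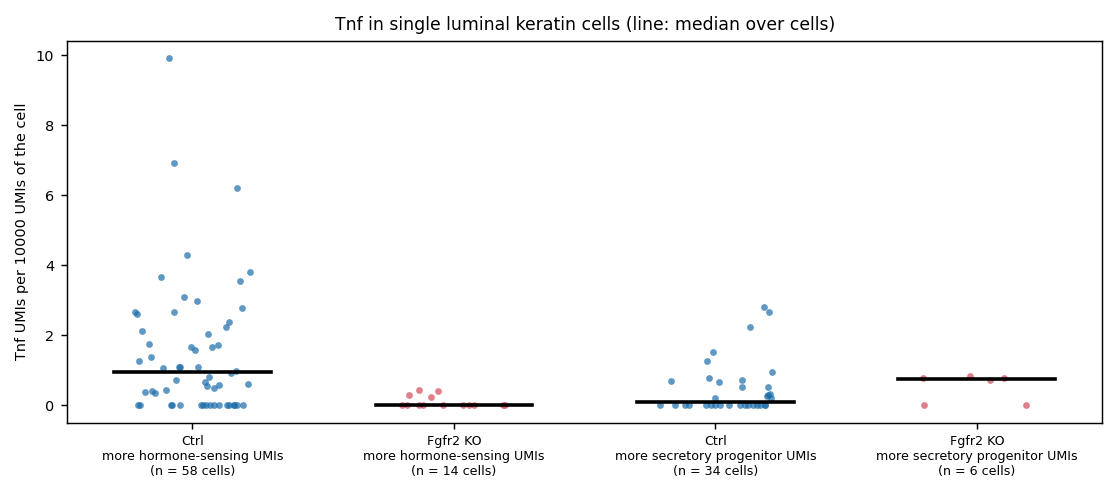
Tnf UMIs per 10000 UMIs of the cell (y axis, linear) in single luminal cells, by library and by which marker sum was larger (x axis, with the number of cells). Each point is a cell, spread sideways for clarity, and the line is the median, which was 0.938 in hormone-sensing cells of Ctrl and 0 in those of Fgfr2 KO.

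In luminal cells the receptors were nearer to no change between the libraries than the ligand. In luminal cells of Fgfr2 KO Tnfrsf1a was at 57.8 CPM (31 UMIs) against 60.9 CPM, a log2 ratio of -0.07 (-0.68 to 0.49), so a 2-fold difference in either direction lay outside the interval. Tnfrsf1b was at 14.8 and 11.2 CPM (6 UMIs in Fgfr2 KO), a ratio of -0.41 (-1.94 to 0.84). In immune cells Tnfrsf1b was at 92.2 and 84.7 CPM (23 UMIs), a ratio of -0.12 (-0.84 to 0.53), and Tnfrsf1a was at 53.7 and 73.7 CPM (20 UMIs), a ratio of 0.46 (-0.34 to 1.19). In the immune cells with more myeloid than keratin UMIs Tnfrsf1a was at 78.5 CPM against 39.4 CPM in Ctrl, and Tnf at 151 against 288 CPM. In basal cells Tnfrsf1a was at 72.3 and 49.5 CPM (14 UMIs), a ratio of -0.55 (-1.47 to 0.27), farther from 0 than that of Tnf, and Tnfrsf1b had 8 UMIs and 1 UMI (-0.86, -6.33 to 2.04). No receptor had an interval that excluded no change in luminal, basal or immune cells. In keratin-low cells Tnfrsf1a was at 117 CPM in Fgfr2 KO (19 UMIs) against 57.5 CPM, a ratio of 1.02 (0.02 to 2.04), and in the cells with more myeloid than fibroblast RNA it was 0.77 (-0.56 to 2.14).

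The targets in luminal cells leaned the way of Tnf, by less. Their median log2 ratio was -0.47, beside -0.03 over all 9067 genes, with 6 of 7 below 0. Nfkbia was at 2012 CPM in Fgfr2 KO (1079 UMIs) against 3298 CPM, a ratio of -0.71 (-0.81 to -0.62). Tnfaip3 was at 93.2 CPM (50 UMIs) against 129 CPM, a ratio of -0.47 (-0.93 to -0.04), and Tnfaip2 at 14.9 CPM (8 UMIs) against 36.9 CPM, a ratio of -1.31 (-2.56 to -0.27). Each of these intervals excluded no change, but that of Tnfaip3 did not without the cells of at least 10 GFP UMIs (-0.41, -0.96 to 0.10), and with no keratin minimum its ratio was 0.22 (-0.11 to 0.55) and that of Tnfaip2 -0.34 (-1.06 to 0.32). Birc3 was at 7.46 CPM (4 UMIs) against 19.0 CPM, a ratio of -1.35 whose interval reached 0.10. That ratio was below 0 in 13 of 14 alternatives of the processing and at 0.71 in the other. Nfkb1 (-0.35), Nfkb2 (-0.04) and Relb (0.08) were nearer to 0, each with an interval that included it. Tnf, Tnfaip2 and Birc3 made 3 of 10 members past 2-fold lower, where 8.97% of all genes were, and 0 were past 2-fold higher, where 3.95% were. With no keratin minimum neither Tnf nor Tnfaip2 was past 2-fold.

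Of the targets, Nfkbia was lower in Fgfr2 KO in hormone-sensing cells and near the level of Ctrl in progenitor cells, and the differences between these groups were not tested. In hormone-sensing cells Nfkbia was at 1828 CPM in Fgfr2 KO against 3781 CPM, with a log2 ratio of -1.05 (-1.16 to -0.94). Nfkb1 (-0.84, -1.50 to -0.24), Tnfaip3 (-0.66, -1.26 to -0.10) and Tnfaip2 (-1.50, -3.44 to -0.03, on 4 UMIs in Fgfr2 KO) were lower as well, and the median over the 7 targets was -0.84. Without the GFP-rich cells Nfkbia was at -0.95 (-1.08 to -0.83) and Nfkb1 at -0.90 (-1.69 to -0.19), while the intervals of Tnfaip3 (-0.51, -1.16 to 0.09) and Tnfaip2 (-1.10, -3.04 to 0.37) included no change. In progenitor cells Nfkbia was at 2711 and 2560 CPM, a ratio of -0.08 (-0.25 to 0.08), Tnfaip3 at 0.18 (-0.60 to 0.88) and the median over the targets 0.18. Not every target followed this order, with Birc3 at -1.05 (3 UMIs in Fgfr2 KO) in hormone-sensing and -1.77 (1 UMI) in progenitor cells and Tnfaip2 at -0.87 (-2.80 to 0.56) in progenitor cells. Per cell, the median of Nfkbia in hormone-sensing cells was 37.2 UMIs per 10000 in Ctrl and 9.54 in Fgfr2 KO, and the ranges, 1.61 to 131 and 0 to 47.6, overlapped. A single Fgfr2 KO cell gave 243 of the 733 Nfkbia UMIs of its group.

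In basal cells the targets did not move together. The median log2 ratio was -0.25, beside -0.10 over 6639 genes, and 3 of 7 were above 0. Nfkbia was lower in Fgfr2 KO, at 1689 CPM (478 UMIs) against 2270 CPM, a ratio of -0.43 (-0.57 to -0.29). Of Tnfaip2 there were 0 UMIs against 25, so its level was at least 1.89-fold lower, taking a floor of 3 counts over the class. Its log2 value was below 0 in 9 of 10 alternatives of the processing and turned to 1.53 in the other. Tnfaip3 was at 163 CPM (46 UMIs) against 131 CPM, a ratio of 0.31 (-0.19 to 0.79). Of the 9 members with at least 20 UMIs 0 were past 2-fold in either direction, where 4.16% of genes were higher and 11.5% lower.

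In immune cells the median log2 ratio of the 7 targets was 0.36, beside -0.03 over all genes, with 5 of 7 above 0 and 4 with an interval above it (Nfkbia, Nfkb2, Relb and Tnfaip3). Nfkb2 was at 73.7 CPM (20 UMIs) against 30.5 CPM, a log2 ratio of 1.27 (0.42 to 2.09), Relb at 77.4 CPM (21 UMIs) against 38.5 CPM (1.01, 0.19 to 1.78) and Tnfaip3 at 368 CPM (100 UMIs) against 257 CPM (0.52, 0.18 to 0.85). The cell of 83994 UMIs gave 8 of the 20 Nfkb2 and 6 of the 21 Relb UMIs, and without it Tnfaip3 was at 0.95. The Nfkb2 and Relb differences depended on the setting. With cells thinned to 5000 UMIs Relb was at 0.07 (-1.70 to 1.54) and Nfkb2 at 1.49 (-0.14 to 3.03), and with at least 2 Ptprc UMIs for an immune cell they were at 0.80 (-0.42 to 1.91) and 0.67 (-0.71 to 1.89). Tnfaip2 went the way of Tnf, at 177 CPM (48 UMIs) against 390 CPM (-1.14, -1.60 to -0.71, and -0.64 without that cell). Of the 10 members 2 were past 2-fold higher and 2 lower, where 7.80% and 12.2% of 6346 genes were.

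Among keratin-low cells, whose makeup differed between the libraries, Birc3 and Tnfaip3 were higher in Fgfr2 KO. Birc3 was at 154 CPM (25 UMIs, 15 of them in the 2 cells with more fibroblast RNA) against 38.3 CPM, a ratio of 2.01 (0.96 to 3.13), and Tnfaip3 at 597 CPM (97 UMIs) against 256 CPM (1.22, 0.78 to 1.67). Tnfaip2 was higher as well (0.77, 0.21 to 1.32), as was Nfkbia (0.32, 0.16 to 0.48), while Nfkb1 had a ratio of -0.71 (-1.73 to 0.22). Of the 9 members with at least 20 UMIs 4 were past 2-fold higher and 0 lower, where 7.38% and 19.8% of 2942 genes were. Between the cells with more myeloid than fibroblast RNA the ratio was 1.83 (0.04 to 3.96) for Birc3, on 10 and 4 UMIs, 1.07 (0.53 to 1.61) for Tnfaip3, 0.88 (0.24 to 1.54) for Tnfaip2 and 0.62 (0.41 to 0.84) for Nfkbia. Keratin-low cells were the shallowest, with a median depth of 6514 (Ctrl) and 4830.5 UMIs (Fgfr2 KO). Of them 3 of 33 and 6 of 26 had over 25% mitochondrial UMIs. The part of depth and cell quality in these values was not tested.

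**Figure D3:**
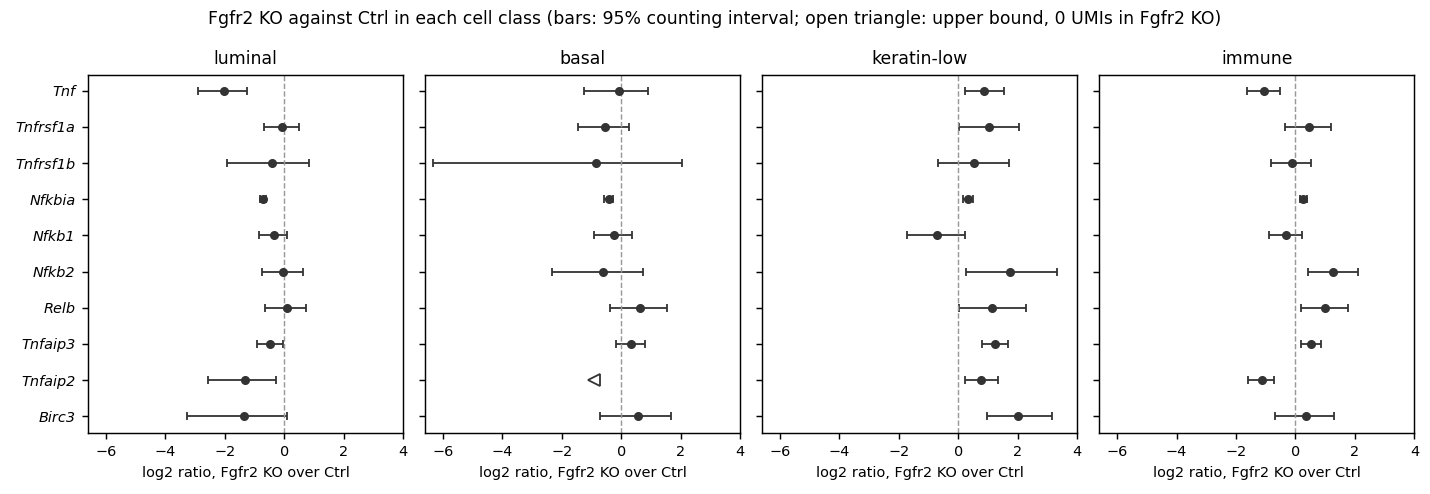
Log2 ratio of Fgfr2 KO over Ctrl (x axis) for each gene (y axis) in the 4 cell classes, with 95% counting intervals as bars and a dashed line at no change. The open triangle marks Tnfaip2 in basal cells, an upper bound from 0 UMIs in Fgfr2 KO. Tnf was at -2.02 in luminal, -0.09 in basal, 0.88 in keratin-low and -1.05 in immune cells.

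Other genes of the pathway were taken from lists. Of 23 signalling genes between the receptors and NF-kB, such as Ripk1, Traf2, Ikbkb and Rela, 21 had a ratio in luminal cells, with a median log2 ratio of -0.02. Of the 20 with at least 20 UMIs only Fadd, an adaptor of the death domain, passed 2-fold (16.8 CPM on 9 UMIs against 6.47 CPM, 1.38, 0.03 to 2.62). Of 18 further NF-kB targets, 16 had enough UMIs, with a median of -0.43 and 4 of them past 2-fold lower, where 8.97% of all genes were. Ccl2, a chemokine that attracts monocytes, was at 26.1 CPM in Fgfr2 KO (14 UMIs) against 303 CPM (-3.54, -4.42 to -2.78). Icam1, an adhesion molecule, was at 26.1 CPM (14 UMIs) against 73.0 CPM (-1.48, -2.38 to -0.70). Ier3, an early response gene, was at 451 CPM against 965 CPM (-1.10, -1.29 to -0.91). Of the 16, 0 were past 2-fold higher, where 3.95% of all genes were. Of 14 other ligands and receptors of the TNF family, 9 had a ratio, with a median of -0.17.

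Basal cells showed lower chemokine RNA in Fgfr2 KO although their Tnf was near that of Ctrl. Ccl2 was at 17.7 CPM (5 UMIs) against 140 CPM, a log2 ratio of -2.99 (-4.63 to -1.74). Cxcl1 and Cxcl2, which attract neutrophils, were at 198 against 707 CPM (-1.84, -2.25 to -1.45) and 152 against 427 CPM (-1.49, -1.97 to -1.04). The list had a median of -0.53 over 17 genes with a ratio, and 5 of the 16 with enough UMIs were past 2-fold lower and 0 higher, where 11.5% and 4.16% of genes were. The myeloid markers in basal cells were lower alongside, at 163 CPM in Fgfr2 KO and 461 CPM in Ctrl, or 1.01% and 2.27% of the immune level of each library, and immune cells of Ctrl had 5187 CPM of Cxcl2. The fibroblast markers in basal cells were at 28.3 and 120 CPM, in that order. The part of RNA from these other cells in the chemokine values was not tested. In immune cells the same list had a median of 0.39, with 5 of 17 past 2-fold higher and 1, Cxcl1 (461 against 1898 CPM), lower, where 7.80% and 12.2% of genes were. The list as a sum was lower there, at 5969 CPM in Fgfr2 KO against 8943 CPM (-0.58, -0.66 to -0.51), with Cxcl2 at 2612 against 5187 CPM.

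Immediate early and heat shock genes, which respond to cell handling as well as to cytokines, summed to more in Fgfr2 KO in all 4 classes, the opposite of the targets in luminal cells and the same direction as the targets in keratin-low and immune cells. The 11 genes summed to 7575 CPM in Fgfr2 KO against 5822 CPM in Ctrl in luminal cells, 11550 against 6716 CPM in basal cells, 14126 against 9368 CPM in keratin-low cells and 6839 against 3951 CPM in immune cells. In luminal cells 8 of the 11 were above 0 and 3 below, and Hspa1a (2.69, 2.39 to 2.99) and Fosb (1.07, 0.88 to 1.26) were among those higher. The part of handling in the values of the 10 genes was not tested.

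Whether the targets followed Tnf was then asked within the luminal, basal and immune cells of Ctrl, where 62 of 98 luminal cells had a Tnf UMI. In these, Nfkbia was at 3734 CPM, against 2178 CPM in the 36 luminal cells without, a log2 ratio of 0.78 (0.70 to 0.86). Tnfaip3 was at 149 CPM against 78.8 CPM, a ratio of 0.92 (0.51 to 1.35). The other 5 targets had intervals that included no change, from -0.14 for Birc3 to 0.51 for Relb. The median over the 7 was 0.22, beside 0.02 over 8561 genes. Of the 7, 5 had a ratio above 0, and only Nfkbia and Tnfaip3 had an interval above it. Of the further targets, 2 of 16 were past 2-fold higher and 0 lower. They were Nfkbie, another inhibitor of NF-kB, at 40.2 against 17.7 CPM (1.19, 0.33 to 2.16), and Ier3 (1.03, 0.87 to 1.18). None of the 9 genes other than Tnf was past 2-fold, where 7.02% of genes were higher and 3.81% lower. The intervals of both receptors included no change, with Tnfrsf1a at 0.22 (-0.30 to 0.78) and Tnfrsf1b at -0.01 (-1.07 to 1.14).

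The same pair was higher in the Tnf-positive cells among the basal and immune cells of Ctrl. In the 19 basal cells with a Tnf UMI, against 44 without, Nfkbia had a log2 ratio of 0.78 (0.67 to 0.89), Tnfaip3 of 1.03 (0.57 to 1.50) and Nfkb1 of 0.88 (0.37 to 1.41). In the 51 immune cells with a Tnf UMI, against 22 without, Nfkbia was at 0.88 (0.74 to 1.02), Tnfaip3 at 1.01 (0.59 to 1.45) and Tnfaip2 at 0.68 (0.36 to 1.01). Tnfaip3 was the 1 member past 2-fold higher in each class, where 4.16% of genes were in basal and 5.50% in immune cells, and 0 were lower, where 3.82% and 9.65% were. Relb was at -0.50 (-1.58 to 0.50) and -0.24 (-1.14 to 0.73), and in immune cells Tnfrsf1a was lower where Tnf was found (-0.93, -1.67 to -0.19). Of the further targets, 2 of 14 were past 2-fold higher in basal cells, Nfkbie (1.38, 0.12 to 2.74) and Cxcl2 (1.56, 1.29 to 1.82), and 1 lower, Sod2 (-1.30, -1.72 to -0.89). In immune cells 5 of 16 were higher and 1 lower, with Cxcl2 at 1.49 (1.39 to 1.60) and Cxcl1 at 1.66 (1.48 to 1.84). The basal cells with a Tnf UMI were deeper, with a median of 22842 against 14329 UMIs, and had more luminal marker RNA, at 2650 against 1764 CPM. The immune cells with one had more myeloid RNA, at 21771 against 16734 CPM, and more immediate early RNA, at 4341 against 3031 CPM. The part of these in the ratios was not tested.

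In Fgfr2 KO both inhibitors were higher in the Tnf-positive luminal cells, while in immune and basal cells their intervals included no change. In its 8 luminal cells with a Tnf UMI, against 12 without, Nfkbia was at 2773 against 1197 CPM, a log2 ratio of 1.21 (1.02 to 1.41), Tnfaip3 at 1.90 (0.88 to 3.07) and Nfkb2 at 1.75 (0.27 to 3.53). These 3 of the 6 members with enough UMIs were past 2-fold higher and 0 lower, where 6.15% and 5.02% of genes were. The 6 luminal cells of Fgfr2 KO with at least 10 GFP UMIs held 8 of the 14 Tnf UMIs, and these ratios were not computed without them. Single luminal cells of Fgfr2 KO gave 243 of the 1079 Nfkbia UMIs and 15 of the 50 Tnfaip3 UMIs. In its immune cells Nfkbia was at -0.09 (-0.33 to 0.15) and Tnfaip3 at -0.59 (-1.21 to 0.05), with 11 cells with and 12 without a Tnf UMI. The former include the cell of 83994 UMIs, and without it Nfkbia was at 0.14 (-0.12 to 0.40) and Tnfaip3 at 0.02 (-0.61 to 0.68). Tnfaip2 was at 1.26 (0.02 to 2.79) with that cell and higher still without it (347 against 86.7 CPM), and Relb at -1.41 (-2.79 to -0.02) with it and -1.77 (-3.67 to -0.09) without. In its basal cells Nfkbia was at 0.23 (-0.04 to 0.49) and Tnfaip3 at -0.17 (-1.12 to 0.75).

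**Figure D4:**
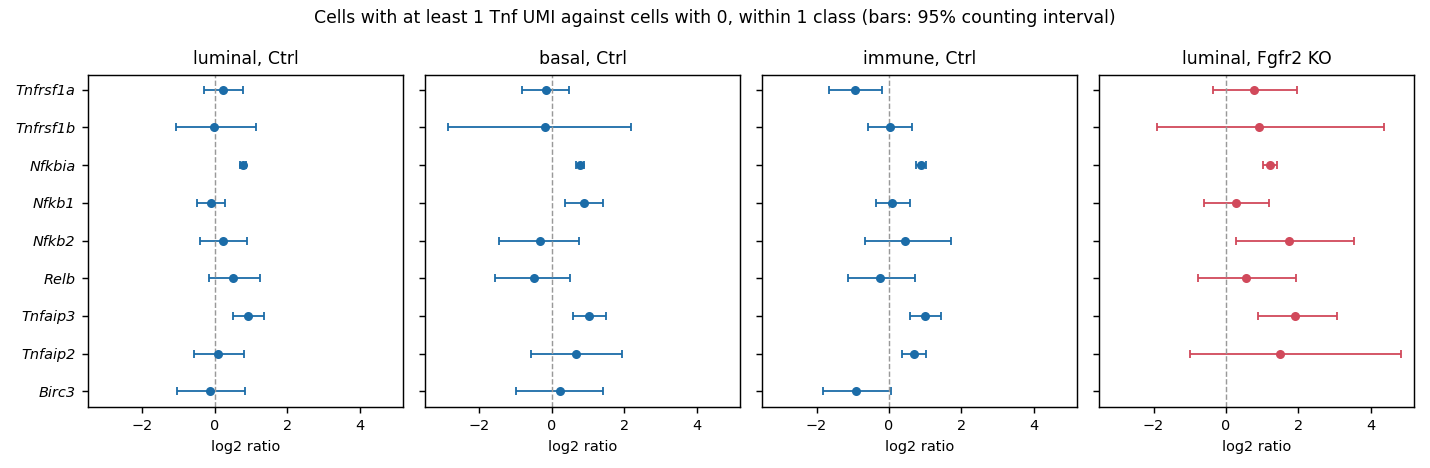
Log2 ratio of cells with at least 1 Tnf UMI over cells with 0 (x axis) for the 9 other genes (y axis) in luminal, basal and immune cells of Ctrl and luminal cells of Fgfr2 KO, with 95% counting intervals as bars. Nfkbia was at 0.78, 0.78, 0.88 and 1.21 and Tnfaip3 at 0.92, 1.03, 1.01 and 1.90. Birc3 in Fgfr2 KO had too few UMIs for a ratio.

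In luminal cells of Ctrl, those with a Tnf UMI were also deeper and more luminal. Their median depth was 27268 UMIs against 16767, and the 7 luminal markers summed to 10186 against 4860 CPM. Their hormone-sensing markers summed to 1473 against 628 CPM and their immediate early genes to 6187 against 4884 CPM. Their myeloid markers were not higher, at 470 against 496 CPM. In luminal cells of Fgfr2 KO the luminal markers were at 6685 CPM with and 6663 CPM without a Tnf UMI, and the hormone-sensing and immediate early sums were lower with one, at 1071 against 1418 CPM and 7215 against 7961 CPM. In Ctrl the ratios of Nfkbia and Tnfaip3 held within the luminal groups, at 0.70 (0.59 to 0.81) and 1.09 (0.41 to 1.84) in hormone-sensing cells and at 0.74 (0.62 to 0.87) and 0.75 (0.15 to 1.38) in progenitor cells. The part of depth and of luminal state in any of these ratios, also those within the groups, was not tested.

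As a description over cells, which share 1 library, its depth and its free RNA, Spearman's rho of each gene with Tnf was computed on UMIs per 10000. Over the 98 luminal cells of Ctrl it was 0.53 for Nfkbia, the 12th highest of 8561 genes, 0.28 for Tnfaip3, 0.21 for Nfkb2 and 0.13 or lower for the other targets. The median over the 7 was 0.13, beside 0.04 over all genes, and depth itself had 0.18. With every cell thinned to 5000 UMIs, Nfkbia had 0.38 over 97 cells and Tnfaip3 0.24, while Relb, Tnfaip2 and Birc3 lay between -0.03 and 0.003. In the luminal groups of Ctrl Nfkbia had 0.51 over 58 hormone-sensing and 0.53 over 34 progenitor cells. Over the 20 luminal cells of Fgfr2 KO it had 0.55, where depth had 0.31. Thinning left 0 of these cells with a Tnf UMI, so no thinned value could be given. Over the 63 basal cells of Ctrl Nfkbia had 0.37, equal to the 0.37 of depth there and 0.23 after thinning, and over the 73 immune cells of Ctrl 0.39. In basal and immune cells of Fgfr2 KO Nfkbia had 0.26 and 0.24, where 21.4% and 38.5% of genes had a higher value. Depth had 0.15 and 0.54 there, and after thinning Nfkbia had -0.08 and 0.09. Tnfaip3 had 0.43 in the immune cells of Ctrl, the 9th highest of 5636 genes. In those of Fgfr2 KO it had 0.33, where 25.4% of genes had a higher value.

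**Figure D5:**
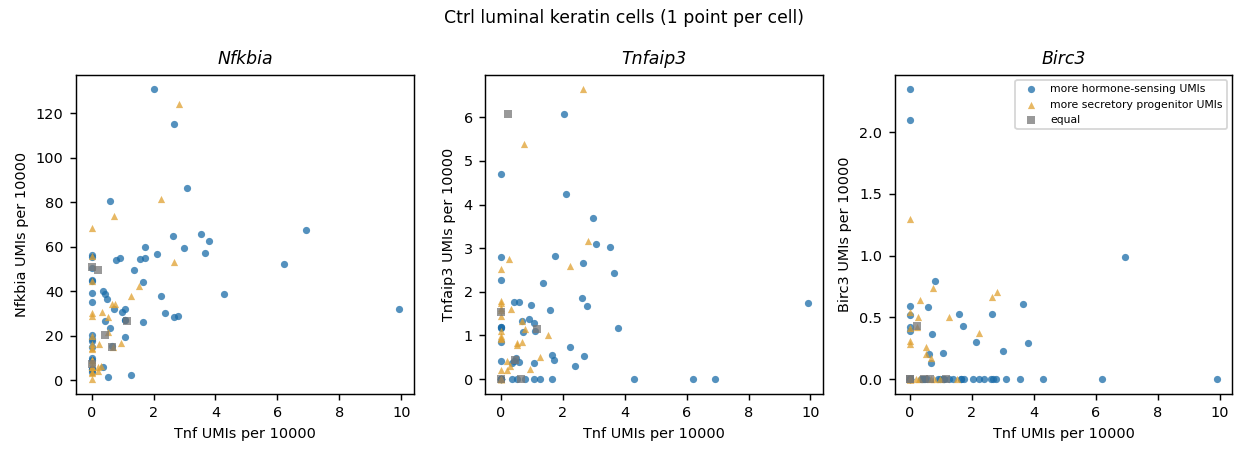
Nfkbia, Tnfaip3 and Birc3 (y axes) against Tnf (x axis), all in UMIs per 10000 UMIs of the cell, in the 98 luminal cells of Ctrl, 1 point per cell and marked by the larger marker sum. Spearman's rho was 0.53, 0.28 and 0.07. The cell with most Tnf, at 9.91, had 32.0 of Nfkbia and 0 of Birc3.

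The genes whose level was most like that of Tnf over the 98 luminal cells of Ctrl were, in order of rho, Clu (0.60), Cystm1 (0.57), Plekhg3 (0.56), Krt7 (0.54), Tapt1, Basp1, H2-Q7, Ier3, Cldn3 and Cldn4 (0.53). Among them Krt7 is a luminal keratin, Cldn3 and Cldn4 encode tight junction proteins and Ier3 is an NF-kB target. Clu was at 965 CPM in cells with a Tnf UMI against 261 CPM in those without. Over the 20 luminal cells of Fgfr2 KO the same genes had a rho with Tnf from -0.20 for Cldn3 to 0.27 for Krt7, below the 0.55 of Nfkbia there.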

How the data were processed

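The authors deposited raw UMI counts per gene and cell in 1 table of both libraries. Per the submitters' processing notes these were made with Cell Ranger 2.1.1 and mm10, while the study's methods name an earlier Cell Ranger version and the joining of both libraries with aggr. Whether depth was equalised there, and the annotation, were not given in the sources used here. Columns were assigned to libraries by their prefix, and 0 were left unassigned. The table held 27998 genes and 2 reporters and still contained immune cells. The study's filter on CD45 had no stated threshold, so Ptprc was used as described, and no other cell was removed. Scrublet, run through Scanpy 1.11.5, called 2 of 268 Ctrl and 6 of 86 Fgfr2 KO cells doublets; they were kept.

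UMIs were summed over the cells of a class and divided by all their UMIs. Levels have exact Poisson, ratios exact conditional binomial 95% intervals. No ratio is given where both sides had at most 3 UMIs, and a side with 0 UMIs enters at a floor of 3, with no ratio where that bound would turn the direction. A gene counts as past 2-fold if it had at least 20 UMIs over both sides. The genes most like Tnf were the 10 with the highest rho among genes with at least 20 UMIs. Genes of other lists are named if past 2-fold with an interval off no change, at most 6 per list and comparison. The 10 genes and all lists were chosen with earlier results of these data known. Levels are not compared between genes. Gene positions are from GENCODE M21 (GRCm38) and promoters from RefSeq. Sums and intervals were tested on simulated data. Python 3.11.15, NumPy 2.4.6, pandas 2.3.3 and SciPy 1.17.1 were used.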

Additional observations from a re-analysis of the deposited data

Results flagged for a closer look

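Ratios of Fgfr2 KO over Ctrl that had opposite signs in different cells, with counting intervals that did not overlap, are given here again on the log2 scale. With 1 library per group the differences themselves were not tested. For Tnf the ratio was 0.88 in keratin-low cells, -2.02 in luminal cells and -1.05 in immune cells, and in the keratin-low cells with more myeloid than fibroblast RNA it was 0.44 (-0.22 to 1.10). Within luminal cells it was -3.63 in those with more hormone-sensing RNA and 0.35 in those with more secretory progenitor RNA, but without the cells of at least 10 GFP UMIs the latter was -0.33 (-3.41 to 1.59) and the intervals overlapped. For Nfkbia the ratio was 0.32 in keratin-low and 0.26 in immune cells, and -0.71 in luminal and -0.43 in basal cells. For Tnfaip3 it was 1.22 in keratin-low and 0.52 in immune cells, and -0.47 in luminal cells. For Tnfaip2 it was 0.77 in keratin-low cells, -1.31 in luminal cells and -1.14 in immune cells, and it was at most -0.92 in basal cells, where Fgfr2 KO had 0 UMIs. The basal value turned to 1.53 in 1 of 10 alternatives of the processing. For Birc3 the ratio was 2.01 in keratin-low and -1.35 in luminal cells, on 4 UMIs in the luminal cells of Fgfr2 KO. The luminal value of Birc3 was 0.71 in 1 of 14 alternatives of the processing.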

How the results depend on the processing

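The log2 ratio of Tnf in luminal cells, Fgfr2 KO over Ctrl, was below 0 in 13 of 14 alternatives. With no keratin minimum, which moves keratin-low cells into the class, it was -0.92. In hormone-sensing luminal cells it was -3.63, and in progenitor luminal cells it reversed to 0.35, though not without GFP-rich cells (-0.33). Tnf in luminal over basal cells of Ctrl was 2.27 with mixed keratin cells left out, and 2.03 and 0.47 in the same luminal groups. Tnfrsf1b in immune over luminal cells was 2.03 with cells thinned to 5000 UMIs. The median of the 7 targets in luminal cells, Fgfr2 KO over Ctrl, was -0.88 as a mean over cells, -0.94 after thinning, -0.84 in hormone-sensing and 0.18 in progenitor cells. The cause of these shifts was not tested. The luminal groups and the settings without GFP-rich cells or the deepest immune cell were chosen after seeing the data. No paired analysis was possible because each group has 1 library and the labels give no replicate numbers. The 20 luminal cells of Fgfr2 KO held under 10 UMIs each of Tnfrsf1b, Birc3 and Tnfaip2, and their intervals are wide.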
